A study of Mus musculus with 6 samples.

Results

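The genes described are 38 genes of NF-κB signalling and leukocyte adhesion, chosen by symbol from a list of subunits, inhibitors, kinases, receptors, adaptors, feedback genes and adhesion molecules. All 38 had a row among the 13595 genes of the deposited table, and all 38 passed the filter on low values. Poly(A) RNA was sequenced from cultured primary cells selected for CD31, a surface marker of endothelium, from livers of 4-week-old C57BL6/J mice. The 3 libraries labelled male and the 3 labelled female all came from cells given 100 µM indoxyl sulfate, a uremic solute and ligand of the aryl hydrocarbon receptor (AHR), during 6 hours of hypoxia without nutrients. The contrast asks how the sexes differ under this shared treatment. It cannot show what the treatment itself did, because no library here went without it. The labels do not say whether libraries 4, 5 and 6 of a group came from separate mice, so each SD and p-value measures the spread between these libraries, which may be technical.

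NF-κB transcription factors are dimers of the Rel family, held in the cytoplasm by IκB proteins. When a cytokine or microbial product binds its receptor, adaptors and ubiquitin chains activate the IκB kinase complex, IκB is degraded and the dimer enters the nucleus. There it induces adhesion molecules that arrest leukocytes on the vessel wall, and also its own inhibitors, which end the response. In liver, sinusoidal endothelium is a main surface on which circulating leukocytes are held.

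Libraries held 22303270 to 31189363 reads over the genes of the table, with the 3 labelled male deeper than the 3 labelled female. Values below are normalized read counts, reads divided by 1 factor per library, and are given in the order of libraries 4, 5 and 6 of each group, male first. Xist, the RNA of X inactivation, followed the labels (0.124 to 0.458 in the libraries labelled male, 234 to 324 in those labelled female), but the Y-linked Ddx3y (47.2 to 76.3 and 48.5 to 57.7) and Uty (23.7 to 32.0 and 22.2 to 27.7) were present in both groups and not called. Y-linked Eif2s3y (55.3 to 61.2 against 29.4 to 30.2) and Kdm5d (30.7 to 37.5 against 17.6 to 20.8) were present in the female libraries too, at called lower levels. Each direction given here rests on labels that Y-linked reads in the female libraries go against. Endothelial markers were present in both groups but were called lower in the female libraries for 10 of 12 tested genes and higher for 1 (8 and 1 of 10 without Erg and Robo4, which passed the filter through the male libraries alone). The 15 endothelial markers summed to 2354 to 2468 in the male and 1219.7 to 1275 in the female libraries, where Cdh5, Eng (called higher) and Emcn made up most of the sum. Among the others the female mean ranged from 5.30% of the male mean for Egfl7, 9.94% for Tie1 and 13.7% for Flt1 to 81.3% for Kdr, which was not called, and the barely detected Sox17 was higher (0.302 against 0.0491). Of the defining sinusoidal markers, Clec4g was at 0 in 5 of the 6 libraries and Stab2 at 0.415 or less in all 6. The 3 tested sinusoidal markers (2 without Gpr182, which passed through the male libraries alone) were lower, Lyve1 at 469.7 to 513 against 4.37 to 5.48. Of 12 tested stellate, mural and fibroblast markers 4 were higher and 8 lower, or 7 without Lum, which passed through the male libraries alone. The muscle genes Acta2 (45.9 to 134 against 1513 to 1887), Myh11, Cnn1 and Des were higher, and Pdgfrb (129 to 136 against 13.04 to 15.3), Col1a2 and Dcn were among the lower. Their sums were 1745 to 2101 against 2433 to 2910 with Acta2 and 1689 to 1967 against 919 to 1023 without it. Of 4 tested mesothelial markers 3 were higher and 1 lower (Msln at 17.1 to 20.6 against 299 to 358, Wt1 at 0.0829 to 0.114 against 11.7 to 13.6, Upk3b at 0 against 1.37 to 4.65), but Wt1 and Upk3b passed the filter through the female libraries alone. The lower one, Krt19 (407 to 498 against 97.8 to 138), also on the cholangiocyte list, made up most of the male sums: 424 to 518 against 457 to 469 with it and 17.2 to 20.7 against 320 to 371 without it. Of 4 tested cholangiocyte markers 3 were lower (sums 1637 to 2484 against 509 to 610.2) and Krt7 was higher (mean 1.84 against 9.19). Of the 15 macrophage markers, 12 had a row and 3 were tested, 2 called higher and 1 lower. They summed to 12.0 to 14.9 in the male and 15.4 to 18.2 in the female libraries, and Ptprc, which marks all leukocytes, was at 0 in each male library and at 0.142 to 0.332 in the female ones. The 7 hepatocyte markers with a row summed to 8.67 to 11.4 and 22.8 to 39.8, nearly all of it Ass1, and Alb was at 0.600 or less. What part these marker differences had in the results below was not tested, and in bulk RNA fewer cells of a type and less RNA per cell cannot be told apart.

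Of the 38 genes, 33 (86.8%) had a limma adjusted p under 0.05, 24 lower and 9 higher in the libraries labelled female. Over all 12568 genes tested, 69.3% were called, 34.6% lower and 34.6% higher, so the contrast covered most of the transcriptome. The median log2 change (log2 fold change, female minus male on the log2(value + 1) scale) was -0.57 for the 38 genes and 0.01 for all genes. With a log2 change of 1 or more in size, 11 of the 38 were called lower and 2 higher, against 12.1% and 8.51% of all genes. Traf1 passed the filter through the male libraries alone; without it, 32 of 37 were called, 23 of them lower. Receptors (3 of 3) and adhesion molecules (4 of 4) were lower without exception, while subunits, kinases, adaptors and feedback genes held members called in both directions. The groups did not overlap for 33 of the 38, 24 lower and 9 higher in the female libraries, against 74.1% of all genes (37% lower and 37.1% higher). These are the called genes with Nfkbib in place of Nfkb2. In the authors' deposited table, 16 of the 38 had a false discovery rate under 0.05 (14 lower, 2 higher), against 25.8% of its genes. All 16 of the authors' deposited table had the same direction here, and the other 17 calls given below are not calls there.

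**Figure D1:**
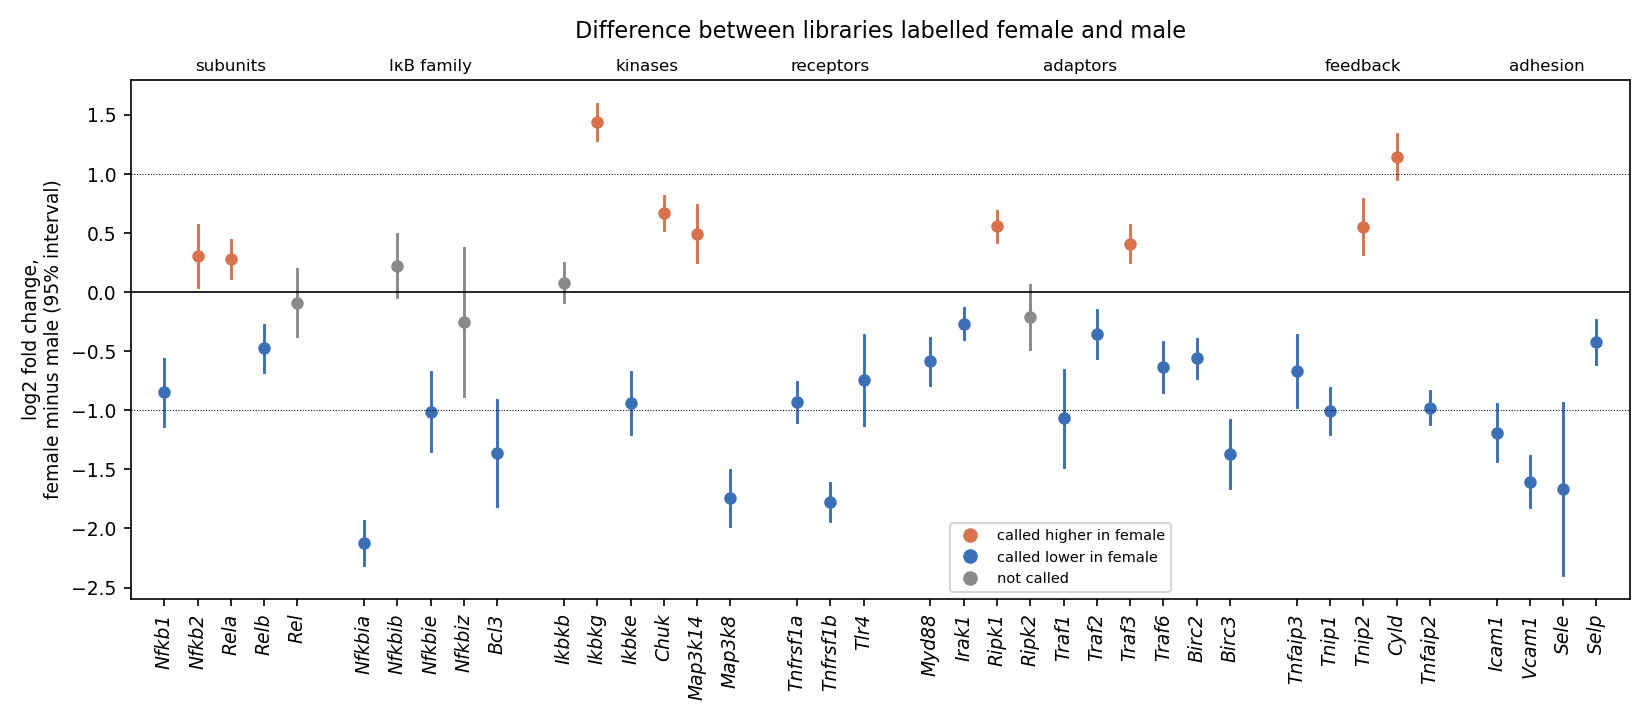
Log2 fold change (female minus male, on the log2(value + 1) scale) of the 38 genes by role, with the 95% interval of the limma fit as a line, coloured by call at an adjusted p of 0.05 and with dotted lines at 1 and -1. Nfkbia lies lowest at -2.12 and Ikbkg highest at 1.44, and the receptors and adhesion molecules all lie below 0.

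Among receptors, those for tumour necrosis factor (TNF) and for bacterial lipopolysaccharide were all lower in the female libraries. Tnfrsf1b, the inducible TNF receptor, read 189.7, 187 and 207 in the libraries labelled male and 55.5, 52.8 and 59.6 in those labelled female. The groups lay far apart, at a log2 change of -1.78 (SE 0.07, adjusted p 2.27e-07 by limma). Tnfrsf1a, the widely expressed TNF receptor with a death domain, averaged 231 ± 17.7 and 121 ± 6.36 (SD, n = 3 each), a log2 change of -0.93. Tlr4, which senses lipopolysaccharide, stood at 107, 70.8 and 67.8 against 42.1, 49.3 and 51.6. Male 4 was highest, no female value reached the male range, and the difference was still called without it (log2 change -0.54; -0.74 with all 6). The balance between the TNF receptors also differed: Tnfrsf1b reads per Tnfrsf1a read were 0.778 to 0.900 in the male and 0.430 to 0.488 in the female libraries.

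Of the adaptors that carry the signal inward, 7 of 10 were lower, 2 higher and 1 not called (6 of 9 lower without Traf1), against 34.6% of all genes in each direction. Birc3, a ubiquitin ligase recruited to TNF receptors and an NF-κB target, was at 34.96, 46.3 and 44.2 in the male and 17.6, 14.6 and 14.4 in the female libraries. Its log2 change was -1.37 (SE 0.12, adjusted p 2.26e-05 by limma), and every female library lay below every male one. Its neighbour and paralog Birc2 was lower too, from 72.2 ± 4.89 to 48.6 ± 1.60 (SD, n = 3 each), a log2 change of -0.56. Birc3 shares 7.38% of its 50-base words with other transcripts on the same strand, and is uncertain to that extent.

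Traf1, a TRAF protein without a ligase domain, was near the lower limit of the data at 1.99, 3.01 and 3.53 against 1.04, 0.840 and 0.570, which is 48, 79 and 100 reads against 25, 19 and 12. Its log2 change was -1.07 (SE 0.18, adjusted p 0.00079 by limma), a size that the pseudocount of 1 shrinks at such low values. It was -1.68 with a pseudocount of 0.1 and -1.80 with edgeR on the reads, and the male mean was 3.49 times the female mean. Traf6, the ligase of the Toll-like and interleukin-1 receptor branch, averaged 55.5 ± 6.78 and 35.2 ± 1.18 (log2 change -0.64). On the same branch Myd88, the adaptor of most Toll-like receptors, was lower by a log2 change of -0.59, and the X-linked kinase Irak1 by -0.27. Traf2, which acts at TNF receptors, was at -0.35.

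Higher in the female libraries were Ripk1, the kinase scaffold of the TNF receptor complex (55.3 ± 1.38 to 81.9 ± 1.44, log2 change 0.56), and Traf3, a brake on the noncanonical pathway (46.7 ± 3.11 to 62.4 ± 1.44, log2 change 0.41; SD, n = 3 each). Ripk2, the kinase that acts under NOD receptors, was not called (39.4 ± 6.76 against 33.6 ± 2.03, adjusted p 0.14 by limma, 95% interval of the log2 change -0.48 to 0.06). Thus the ligases and adaptors of the receptor complexes did not all move one way.

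The kinases were called in both directions. Of the canonical IκB kinase complex, the regulatory subunit Ikbkg (NEMO), which binds ubiquitin chains, had the largest increase of all 38 genes. It read 79.1, 69.2 and 69.6 in the male libraries and 200.04, 199.7 and 197 in the female ones. The female libraries were close to each other and stood 2.74 times as high (log2 change 1.44, SE 0.07, adjusted p 5.13e-07 by limma).

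Chuk, the catalytic subunit IKKα, was also higher (47.2 ± 1.96 to 75.6 ± 1.49, SD, n = 3 each, log2 change 0.67). Ikbkb, the catalytic subunit IKKβ, was not called (42.6 ± 2.56 against 45.1 ± 1.89, adjusted p 0.347 by limma), and the 95% interval of its log2 change ran from -0.09 to 0.25. Ikbkg reads per Ikbkb read were 1.65 to 1.74 in the male libraries and 4.28 to 4.65 in the female ones. Per kilobase of transcript, Ikbkg, Ikbkb and Chuk were at 10.4 ± 0.797, 10.7 ± 0.644 and 13.5 ± 0.558 normalized reads per kb in the male libraries. In the female libraries they were at 28.4 ± 0.236, 11.3 ± 0.476 and 21.6 ± 0.426 on that scale. The scale divides by the longest coding transcript, 6994 bases for Ikbkg, 3977 for Ikbkb and 3502 for Chuk. The transcript in use was not measured, so the order of the 3 genes depends on that choice.

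Ikbkg lies on the X chromosome and overlaps G6pdx on the opposite strand. Of the 50-base words of Ikbkg, 4.35% occur on the opposite strand of other genes, with G6pdx the main partner. G6pdx itself was called lower (269.8 to 283 in the male and 163 to 219 in the female libraries). Of 399 X-linked genes tested, 162 (40.6%) were called higher and 130 (32.6%) lower, against 34.6% of all genes in each direction. Irak1, the other X-linked gene of the 38, was among the lower. What part X linkage or the overlap had in the Ikbkg values was not tested.

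Outside this complex, Map3k8, a kinase that links the pathway to ERK signalling, was lower, at 27.3, 24.8 and 25.6 against 6.18, 7.38 and 7.65. The groups were well separated (log2 change -1.74, SE 0.10, adjusted p 1.86e-06 by limma). Ikbke, an inducible IKK-related kinase of interferon signalling, fell from 36.7 ± 5.57 to 18.5 ± 0.561 (SD, n = 3 each, log2 change -0.94). Map3k14, the NF-κB-inducing kinase of the noncanonical pathway, was low and called higher (5.12 ± 0.468 to 7.62 ± 0.435, log2 change 0.50). Of the 6 kinases, 3 (50%) were higher, 2 (33.3%) lower and 1 not called, against 34.6% of all genes called in each direction. The 6 genes are too few for these shares to be read as a trait of the kinases.

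**Figure D2:**
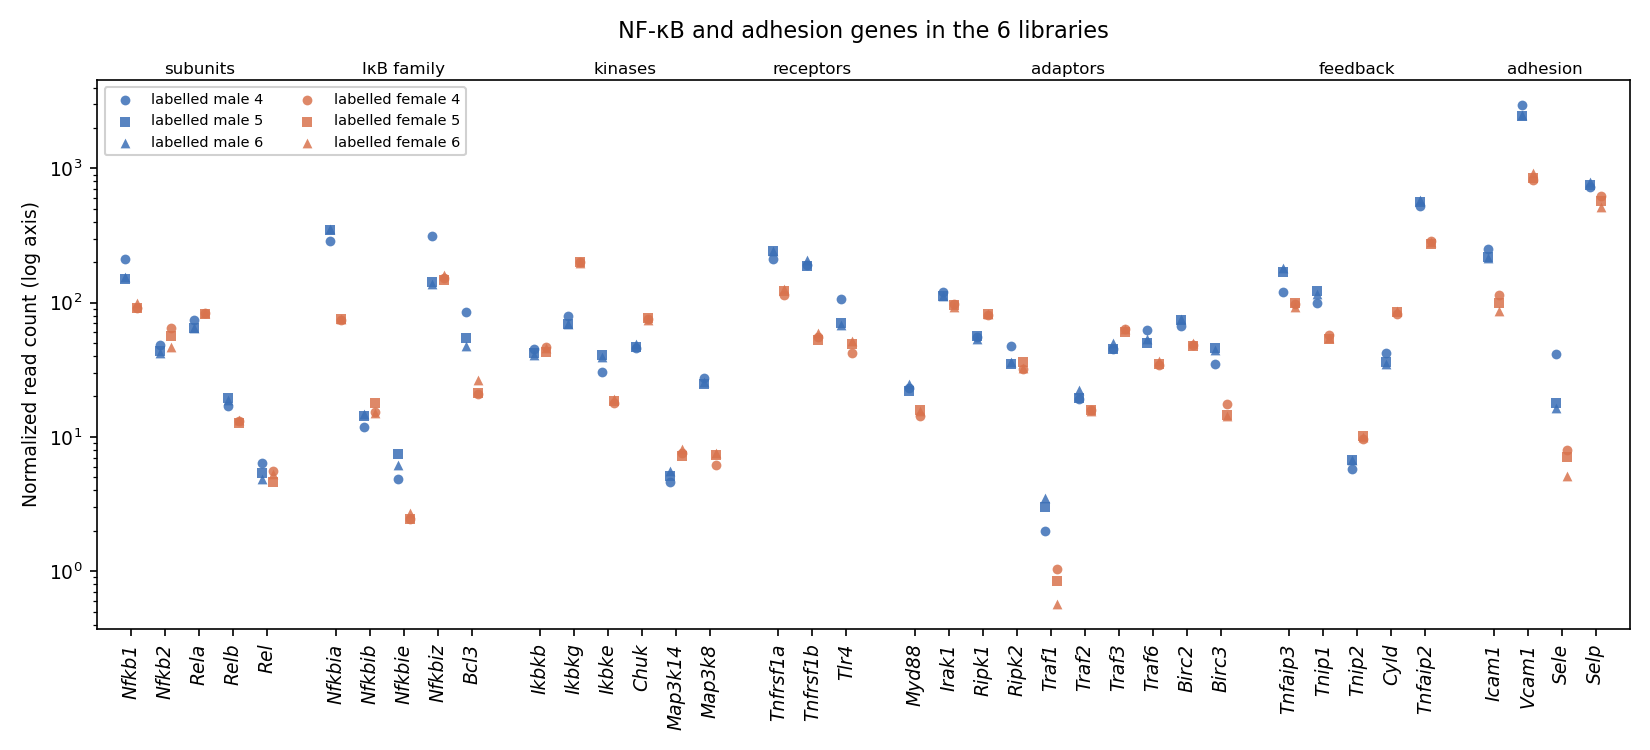
Normalized read count (log axis) of the 38 genes by role, with 1 point per library, blue for libraries labelled male and orange for those labelled female, and the marker shape giving the replicate number. Vcam1 is highest (819 to 930 in the female and 2454 to 2972 in the male libraries), Traf1 lowest, and the male 4 library lies apart for Nfkbiz and Sele.

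The subunits ranged in log2 change from -0.85 to 0.31. Nfkb1, which encodes the precursor of p50, was at 210.3, 149 and 155 in the male libraries and 90.5, 91.3 and 99.0 in the female ones. All female values lay below all male values, with male 4 highest, and the log2 change was -0.85 (SE 0.12, adjusted p 0.000357 by limma). Rela, the main activating subunit p65, went slightly the other way, at 74.9, 64.8 and 65.0 against 83.2, 82.5 and 83.1 (log2 change 0.28, SE 0.07, adjusted p 0.00771 by limma).

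Relb, the activating partner in the noncanonical pathway, was lower (18.5 ± 1.26 to 13.005 ± 0.306, SD, n = 3 each, log2 change -0.48). Its partner Nfkb2, the precursor of p52, averaged 44.7 ± 3.02 and 56.0 ± 8.79, a log2 change of 0.31 that was called (adjusted p 0.0385 by limma) although female 6 (47.0) lay below male 4 (48.1). That call was lost without male 5, male 6, female 4 or female 5, with values of 0.20 to 0.43 over the 6 fits that each left out 1 library, and 14.9% of the 50-base words of Nfkb2 occur on the opposite strand of other genes. Rel, the subunit best known from lymphocytes, was low and not called (5.55 ± 0.771 against 5.14 ± 0.495, adjusted p 0.549 by limma, 95% interval of the log2 change -0.37 to 0.20), and its sign turned without male 4 (0.0024).

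Per kilobase of transcript, the order of the subunits differed between the groups. In the male libraries Nfkb1 (41.6 ± 8.22 normalized reads per kb, SD, n = 3) stood above Rela (25.1 ± 2.11), Nfkb2 (11.6 ± 0.785), Relb (8.38 ± 0.571) and Rel (0.743 ± 0.103). In the female libraries Rela (30.5 ± 0.135) stood above Nfkb1 (22.7 ± 1.14), and Nfkb2 (14.6 ± 2.28), Relb (5.89 ± 0.139) and Rel (0.689 ± 0.0662) followed. These levels use the longest coding transcript of each gene, and the transcript in use was not measured.

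Among the IκB family, Nfkbia had the largest decrease of the 38 genes. It encodes IκBα, the classical inhibitor and a rapid NF-κB target, and read 289, 350.1 and 352 in the male libraries against 73.9, 75.1 and 75.5 in the female ones. The male libraries were on average 4.42 times as high (log2 change -2.12, SE 0.08, adjusted p 2.12e-07 by limma), with male 4 lowest of the 3. As Rela went the other way, Nfkbia reads per Rela read ranged from 3.86 to 5.41 in the male and from 0.888 to 0.910 in the female libraries. Against Nfkb1, which was itself lower, the ratio was 1.38 to 2.35 and 0.762 to 0.822.

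Nfkbie, which encodes IκBε, was weakly expressed at 4.89, 7.44 and 6.22 against 2.45, 2.43 and 2.71 (log2 change -1.01, SE 0.14, adjusted p 0.00032 by limma). Nfkbib, which encodes IκBβ, was not called at 13.7 ± 1.60 against 16.1 ± 1.62 (adjusted p 0.115 by limma, 95% interval of the log2 change -0.04 to 0.49), although its groups did not overlap. Quantile normalization made it a call (log2 change 0.29, adjusted p 0.0334). The classical inhibitors thus ranged from -2.12 to 0.22 in log2 change.

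The nuclear IκB proteins, which bind p50 or p52 dimers on DNA, varied between the male libraries. Bcl3 was at 84.5, 54.2 and 47.5 against 21.0, 21.3 and 26.5, a log2 change of -1.36 (SE 0.20, adjusted p 0.000342 by limma). Male 4 was the highest, and no female value reached the male range. Nfkbiz read 313, 143 and 138 in the male and 154, 146 and 161 in the female libraries, and was not called (log2 change -0.25, adjusted p 0.43 by limma). Without male 4 its sign changed and it was called slightly higher in the female libraries (log2 change 0.13, adjusted p 0.0486), so that 1 library set the direction of Nfkbiz.

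The feedback genes moved in both directions. Tnfaip3, a ubiquitin-editing enzyme that ends TNF and Toll-like receptor signals, averaged 156 ± 31.1 and 96.8 ± 3.27 (SD, n = 3 each, log2 change -0.67), with male 4 at 121 below male 5 and 6 at 168 and 180. Tnip1, which tethers it to ubiquitin chains, was at 99.2, 121 and 117 against 57.8, 53.6 and 54.3. That is 49.1% of the male level (log2 change -1.01, SE 0.08, adjusted p 1.44e-05 by limma). Tnfaip2, a TNF-induced gene of endothelium, was at 556 ± 27.9 and 282 ± 7.02, a log2 change of -0.98.

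Cyld, a deubiquitinase that removes the activating chains, was higher in the female libraries, at 42.1, 35.9 and 34.9 against 81.8, 84.8 and 86.3. Its log2 change was 1.15 (SE 0.08, adjusted p 5.65e-06 by limma), and every female value lay above every male one. Tnip2, a relative of Tnip1, was also higher (6.43 ± 0.579 to 9.89 ± 0.206, log2 change 0.55). Because Cyld and Tnfaip3 went opposite ways, Cyld reads per Tnfaip3 read were 0.194 to 0.348 in the male and 0.833 to 0.928 in the female libraries.

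**Figure D3:**
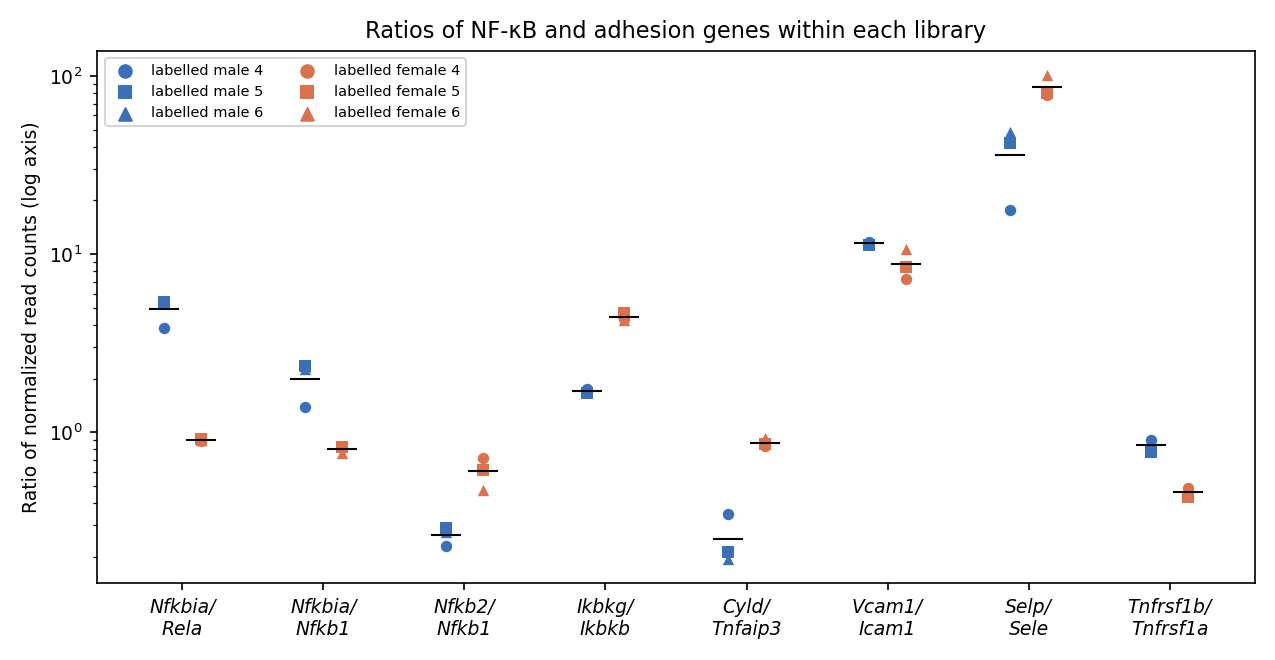
Ratio of the normalized read counts of paired genes within each library (log axis), with blue points for libraries labelled male, orange for those labelled female, shapes for the replicate number and a bar for the group mean. The Nfkbia to Rela ratio is 3.86 to 5.41 in the male and 0.888 to 0.910 in the female libraries, and the pairs were chosen after the values were seen.

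Promoter sequence was examined because several of these genes are induced by NF-κB itself, so that members lower and higher in the female libraries can be set side by side. Promoters came from RefSeq (GRCm38.p6), as windows from 250 bases before to 50 after a start site, and 30 of the 38 genes matched by symbol. The κB consensus, a motif of 10 bases that opens with GGG and closes with CC, was searched on both strands. Between these, the pattern took A or G, any base, A or T, C or T, and again C or T. Palindromic sites match on both strands and can overlap in register. The motif occurred in the windows of 9 of 30 genes (30%), against 655 of 10159 genes of the deposited table (6.45%). By window, 11 of 39 (28.2%) held it, against 5.38% of those of the table's genes. The genes were listed for their part in this pathway, known targets included, so this share describes the list and not the data. The 9 genes were Bcl3, Nfkbia, Nfkbie, Tnfaip3 and Tnip1, all called lower, Cyld, Nfkb2 and Traf3, called higher, and Rel, not called. The Nfkb2 call was lost in 4 of the 6 fits that each left out 1 library. Of all genes 34.6% were called in each direction, and of the 38 genes 24 were lower and 9 higher. The split of these 9 genes is therefore not read as a result about the motif.

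The 180 bases before the start site of 6 of them, chosen after their values were seen, are shown, 3 lower and 3 higher in the female libraries, read 5′ to 3′ on the gene's own strand with matches on either strand in capitals. The lower genes are Nfkbia (chr12:55492648-55492827, minus strand), Tnfaip3 (chr10:19015411-19015590, minus strand) and Tnip1 (chr11:54962941-54963120, minus strand). The higher genes are Nfkb2 (chr19:46304557-46304736, plus strand), Cyld (chr8:88696848-88697027, plus strand) and Traf3 (chr12:111166190-111166369, plus strand).
Nfkbia: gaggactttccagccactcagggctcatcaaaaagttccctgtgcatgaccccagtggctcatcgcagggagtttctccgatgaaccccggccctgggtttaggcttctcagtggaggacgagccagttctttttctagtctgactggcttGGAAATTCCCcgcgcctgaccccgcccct
Tnfaip3: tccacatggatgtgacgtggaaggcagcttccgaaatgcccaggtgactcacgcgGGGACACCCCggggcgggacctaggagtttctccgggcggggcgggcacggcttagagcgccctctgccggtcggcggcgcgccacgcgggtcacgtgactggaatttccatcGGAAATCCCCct
Tnip1: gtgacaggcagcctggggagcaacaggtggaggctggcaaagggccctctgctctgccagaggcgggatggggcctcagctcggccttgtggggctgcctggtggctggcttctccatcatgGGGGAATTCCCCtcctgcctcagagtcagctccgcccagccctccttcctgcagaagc
Nfkb2: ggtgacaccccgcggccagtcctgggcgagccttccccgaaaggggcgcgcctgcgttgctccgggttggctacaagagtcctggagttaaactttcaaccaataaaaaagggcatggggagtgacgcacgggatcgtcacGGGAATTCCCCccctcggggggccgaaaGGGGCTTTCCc
Cyld: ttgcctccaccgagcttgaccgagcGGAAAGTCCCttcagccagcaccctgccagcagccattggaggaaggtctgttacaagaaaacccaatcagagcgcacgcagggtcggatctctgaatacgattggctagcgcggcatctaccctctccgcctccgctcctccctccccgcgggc
Traf3: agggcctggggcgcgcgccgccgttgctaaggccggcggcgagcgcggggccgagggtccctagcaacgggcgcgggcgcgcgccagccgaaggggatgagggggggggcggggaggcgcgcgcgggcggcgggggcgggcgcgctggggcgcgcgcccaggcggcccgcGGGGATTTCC

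Matches began 29 bases before the start in Nfkbia, 125 and 12 in Tnfaip3 and 58 in Tnip1. They began 39 and 11 bases before it in the Nfkb2 window shown, which is not its only one, 155 in Cyld and 10 in Traf3. Nfkbia had GGGAATTTCC on the strand opposite to the gene, and Cyld had GGGACTTTCC likewise. Each had 1 match to this pattern in the windows searched, and looser matches were not counted. Binding was not measured, and a part of the motif in these changes was not tested.

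All 4 leukocyte adhesion molecules were lower in the libraries labelled female, against 34.6% of all genes. Vcam1, which arrests lymphocytes and monocytes through α4 integrins, was the most abundant of the 38 genes per kilobase in both groups. It read 2972, 2454 and 2505 in the male and 819, 848 and 930.3 in the female libraries. The groups were far apart, and the log2 change was -1.61 (SE 0.09, adjusted p 1.79e-06 by limma). Icam1, the ligand of leukocyte β2 integrins, was at 253, 218 and 216 against 114, 99.99 and 86.9. All female values lay under the male range (log2 change -1.19, SE 0.11, adjusted p 1.93e-05 by limma). Antisense transcripts cover 12.9% of the 50-base words of Icam1 and 11.1% of those of Selp, and whether the counting used strand is not given in the sources used here.

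The selectins support the rolling of leukocytes before arrest. Sele, induced on activated endothelium, read 41.5, 18.0 and 16.5 in the male and 7.97, 7.07 and 5.08 in the female libraries. Male 4 was 2.41 times the mean of male 5 and male 6, and the groups did not overlap with or without it (log2 change -1.67, SE 0.32, adjusted p 0.00167 by limma; -1.26 without male 4). Selp, stored in endothelial granules and in platelets, was at 729, 754 and 795 against 622, 569 and 515. This was the smallest change of the 4 (log2 change -0.42, SE 0.08, adjusted p 0.0017 by limma). Selp reads per Sele read were 17.6, 42.0 and 48.3 in the male and 78.0, 80.4 and 101 in the female libraries. Per kilobase the order in both groups was Vcam1, Selp, Icam1 and Sele, at 762 ± 82.3, 221 ± 9.72, 90.4 ± 8.14 and 8.69 ± 4.82 in the male and 249.6 ± 16.6, 165 ± 15.6, 39.5 ± 5.31 and 2.30 ± 0.507 normalized reads per kb in the female libraries (SD, n = 3 each). Pecam1, which encodes the CD31 used to select the cells, was lower too, at 391 to 423 against 73.5 to 74.5. Cdh5, the cadherin of endothelial junctions, was at 918 to 929 against 374 to 397. The part of these markers in the lower adhesion genes was not tested.

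Within groups, the 38 genes varied most in male 4. For 6 of them male 4 lay at least 0.5 (log2) from the mean of male 5 and male 6. Sele (1.22), Nfkbiz (1.15), Bcl3 (0.72) and Tlr4 (0.62) were higher in male 4, and Tnfaip3 (-0.52) and Traf1 (-0.51) lower. Over all genes tested the share was 10.05%, against 15.8% of the 38. In male 5 and male 6, 2 and 3 of the 38 lay that far out, against 2.14% and 2.10% of all genes. In female 4, 5 and 6 none of the 38 did, against 1.32%, 0.80% and 1.65% of all genes. At such shares, none of 38 genes is no trait of these genes. In male 4 the next largest differences, under 0.5 in size, went both ways. Nfkb1 (0.47) and Ripk2 (0.40) were higher, and Nfkbie (-0.40), Ikbke (-0.39) and Birc3 (-0.36) were lower.

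**Figure D4:**
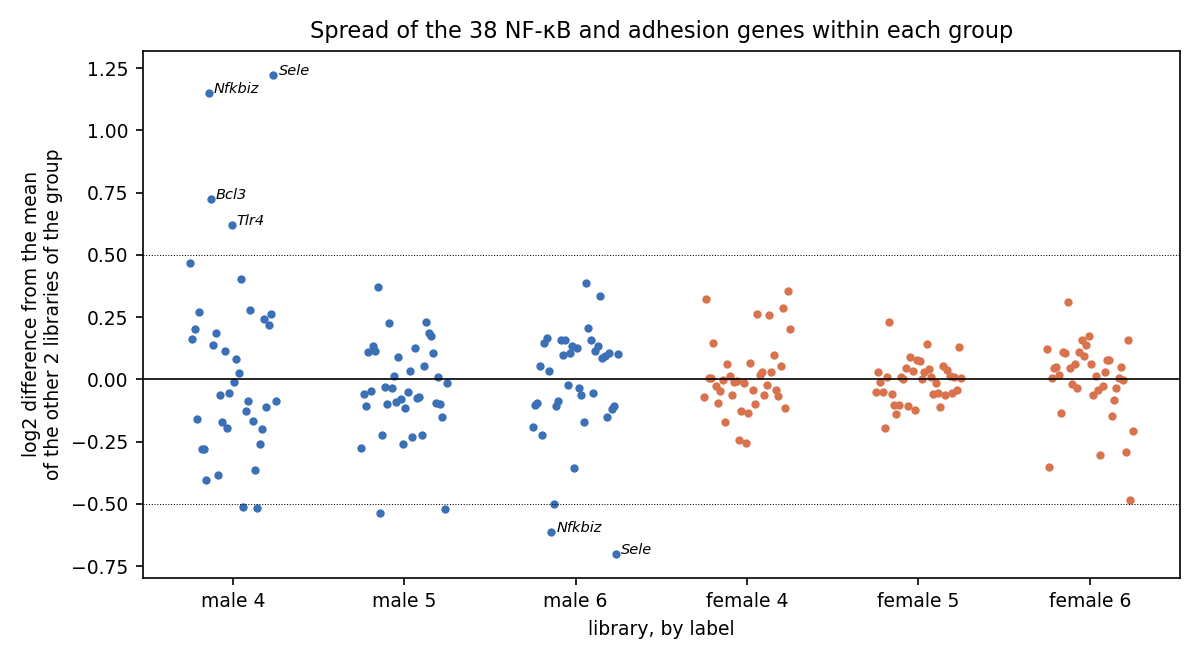
Difference (log2) of each of the 38 genes in a library from the mean of the other 2 libraries of its group, with dotted lines at 0.5 and -0.5 and genes beyond 0.6 named. Male 4 holds the widest spread, from Sele at 1.22 to Tnfaip3 at -0.52.

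A further list of 81 NF-κB pathway genes was described in the same way. Of these, 75 were tested, and 49 (65.3%) were called, 28 lower and 21 higher, against 69.3% of all genes (34.6% in each direction), with a median log2 change of -0.03. Without 3 genes that passed the filter in 1 group alone, 46 of 72 were called, 25 of them lower. Of its receptors, 8 of 14 were lower and 4 higher, and of its adaptors 10 of 19 were lower and 4 higher. Of its ubiquitin enzymes 2 of 14 were lower and 4 higher. On the log2(value + 1) scale the largest decreases were those of Ticam2, a bridging adaptor of TLR4 (19.5 ± 3.49 to 1.79 ± 0.561, SD, n = 3 each, log2 change -2.88), and Il1r1, the interleukin-1 receptor (203 ± 4.67 to 43.2 ± 4.70, -2.21). Irak3, a brake on Toll-like receptor signalling, was at -2.20, the kinase Map3k1 at -2.14 and Zfp36, which destabilises cytokine mRNAs, at -1.66. By ratio of means Sigirr, an inhibitory receptor of the interleukin-1 family, came after Ticam2 (2.66 to 0.311, 8.55 times lower), but it passed the filter through the male libraries alone.

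On the log2(value + 1) scale the largest increase was that of Tnfrsf12a, the receptor for TWEAK (26.0 ± 2.90 to 87.5 ± 12.9, log2 change 1.71). Cd40, a costimulatory receptor, came next (1.65 ± 0.139 to 6.33 ± 1.35, SD, n = 3 each, log2 change 1.45). Cflar, an inhibitor of caspase 8 and an NF-κB target, followed at 0.97, with male 4 at 272 beside 139.6 and 134 in the other male libraries. Tab3, a ubiquitin-binding partner of the kinase TAK1, was at 0.96 and the death receptor Tnfrsf10b at 0.84. By ratio of means Cd40 (3.85) came before Tnfrsf12a (3.36), and Tab3 (1.96) before Cflar (1.85). Receptors of the TNF family were therefore found on both sides. Tnfrsf1a, Tnfrsf1b and Tnfrsf11a were lower, the last passing the filter through the male libraries alone. Tnfrsf12a, Tnfrsf10b, Cd40 and Ltbr were higher, and Tnfrsf21 was not called.

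Of 30 further genes of leukocyte adhesion and transmigration, 20 were tested and 17 were called, 14 lower and 3 higher, against 69.3% of all genes (34.6% in each direction). The list's median log2 change was -0.51, and without 2 genes that passed the filter in 1 group alone, 16 of 18 were called. Several are endothelial markers themselves. Icam2, a constitutive endothelial ligand of leukocyte integrins, was at 16.9, 22.5 and 24.6 against 1.29, 1.503 and 0.807 (log2 change -3.34, passing the filter through the male libraries alone). The pseudocount shrinks this change too, as the male mean was 17.8 times the female mean. On the log2(value + 1) scale Icam2 was followed by the sialomucin Podxl at -2.80. Next came the scavenger receptor Stab1 (-2.49), Pecam1 (-2.44) and the membrane chemokine Cx3cl1 (-2.26). By ratio of means Stab1 (8.03 times lower) came before Podxl (7.58 times lower). The 3 called higher were Msn (1.37) and Ezr (0.29), which anchor adhesion molecules to actin, and Alcam (0.48), an immunoglobulin-family adhesion molecule.

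**Figure D5:**
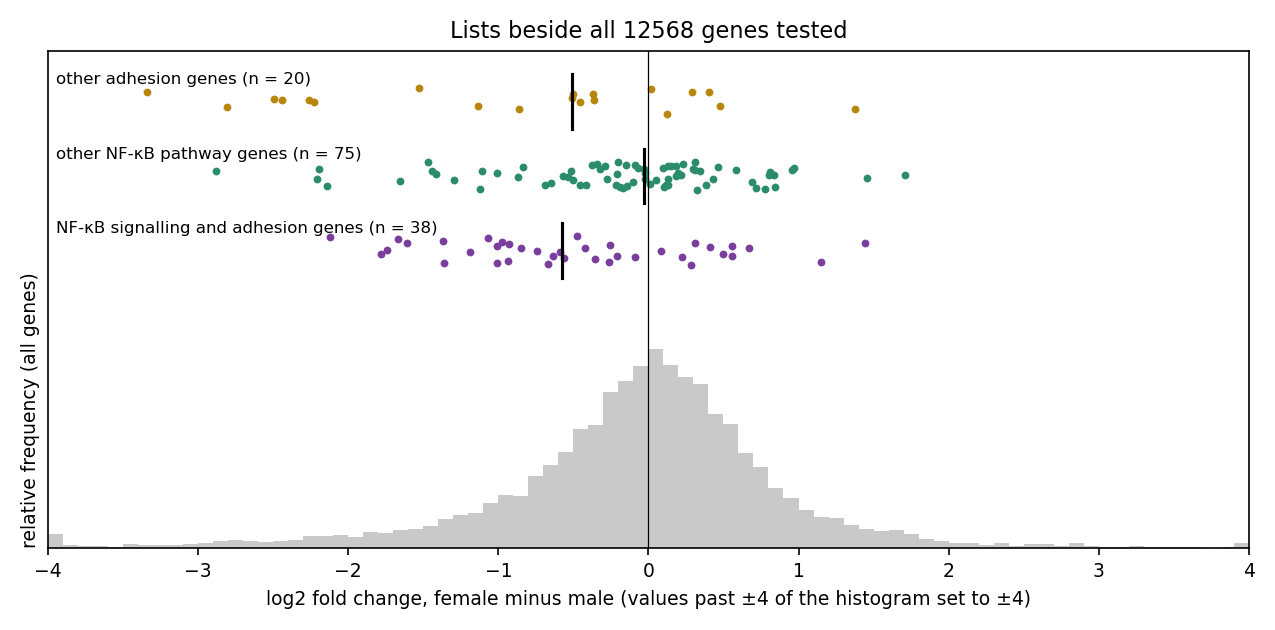
Log2 fold change (female minus male) of the 38 NF-κB signalling and adhesion genes, of 75 other NF-κB pathway genes and of 20 other adhesion genes as points (spread vertically at random, median as a bar), over the distribution of all 12568 genes tested in grey. The medians are -0.57, -0.03 and -0.51, and 0.01 for all genes.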

How the data were processed

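Poly(A) RNA from 3 libraries labelled male and 3 labelled female was sequenced. The deposited signal values are whole read counts divided by 1 factor per library: in every column 100% of values were whole multiples (within 0.01 reads) of the smallest value above 0. Per the submitters' processing notes, Bowtie2, RSEM and edgeR were used with build mm39; versions, annotation and the rule for detectable genes are not given in the sources used here. Per the file header, a signed fold change (a score here) was deposited beside each gene, as were a p-value and a false discovery rate, all made by the authors.

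As the table holds normalized values, the planned test for such values was used: limma 3.58.1 in R 4.3.3 (eBayes with trend) on log2(value + 1), for genes with at least 1 in at least 3 libraries, with Benjamini-Hochberg adjustment over all genes and a threshold of 0.05. Intervals are 95% intervals of that fit. Dividing by the smallest value gave back reads for edgeR 4.0.16 and DESeq2 1.42.0 as alternatives. The quasi-likelihood test of edgeR gave 8975 calls, 8562 of them among the 8704 of limma, and 33 of the 38 members. The fits were first tested on simulated data. Transcript lengths and shared 50-base words came from GENCODE M21 (GRCm38), promoters from RefSeq (GRCm38.p6). No coordinates of the authors' build were used. Other alternatives were RLE size factors, quantile normalization, other filters, a pseudocount of 0.1, a fold threshold, the replicate number as a block and each library left out.

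The members and lists were chosen with earlier results of these data known. By rule, all members were named, with values in every library for Nfkb1, Rela, Nfkbia, Icam1, Vcam1, Sele, Selp and any member with a log2 change of 1 or more in size. Of the other lists, the 5 largest increases and decreases among called genes were named. Other genes given library by library, and several of the markers, were chosen after their values were seen.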

Additional observations from a re-analysis of the deposited data

How the results depend on the processing

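Of 527 values recomputed for the 38 genes, 520 kept direction and call. The exceptions were Nfkb2, uncalled in 4 of the 6 fits that each left out 1 library (0.20 to 0.43), Nfkbib, called higher under quantile normalization (0.29), and 2 reversals without male 4, in Rel and Nfkbiz. Across the fits without 1 library, Rel ran from -0.16 to 0.0024 and Nfkbiz from -0.46 to 0.13. The cause was not tested, but Nfkbiz in male 4 (313) is 2.23 times the mean of the other male libraries. A required log2 change of 1 or more in size left, by construction, 13 of the 38 genes, 14 other pathway genes, 9 other adhesion genes and 2589 genes in all. Under the other alternatives the count for the 38 genes ran from 29 (a filter at 10, with 33 tested) to 34. The fits that each left out 1 library gave 32 to 34. Replicate numbers gave no pairing of the libraries: deviations of same-numbered libraries correlated at -0.09, -0.03 and -0.17. With the replicate block 33 of the 38 and 8314 of all genes were called. Depth limits chiefly Traf1, with 12 to 25 reads in the female libraries, and Nfkbie, with 55 to 59.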
